A study of Mus musculus with 12 samples.

Results

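The genes described here are 40 heat shock chaperones and co-chaperones of the cytosol and of mitochondria, taken from a list of HSP90, HSP70, HSP60, J-domain, CCT chaperonin and prefoldin genes. Of these 40 genes, 36 are among the 10080 genes with ribosome footprints (RPF), and all 40 are among the 41255 genes with mRNA values. *Hspa1a*, *Hspa1b*, *Hspb1* and *Bag3* have mRNA values alone. The study asked how the R98S mutation of the ribosomal protein RPL10 changes the mRNA and the ribosome occupancy of genes in Ba/F3, a mouse lymphoid line that grows on interleukin 3. Each assay has 6 libraries from 6 clones, 3 with *RPL10 R98S* (clones 11, 13 and 35) and 3 with *RPL10 WT* (clones 28, 29 and 36). In every clone a retroviral vector carried the human *RPL10* allele and an shRNA reduced the mouse gene. Before harvest, cells of both genotypes were exposed to cycloheximide (100 μg/ml, 5 min), which stalls ribosomes on their mRNAs.

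Chaperones bind unfolded stretches of other proteins and let them fold without clumping. Many meet their substrates as these leave the ribosome: prefoldin hands actin and tubulin chains to the CCT ring, J-domain proteins bring clients to HSP70, and HSP70 passes kinases and steroid receptors on to HSP90. HSF1, a transcription factor that HSP70 and HSP90 hold in check, switches on many of these genes when unfolded proteins build up, through pairs and triplets of short motifs in their promoters.

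Values are normalized counts, that is, gene reads divided by the size factor of the library, and values of single clones are given in the order 11, 13, 35 for R98S and 28, 29, 36 for WT. Each mRNA library held between 6617457 (WT clone 28) and 23136595 (WT clone 36) counted reads, and each RPF library between 3477723 (R98S clone 35) and 10883086 (R98S clone 11). A single read of the WT clone 28 mRNA library is worth 2.69 normalized counts. Differences are R98S minus WT on the log2(normalized count + 1) scale, which understates the change of low genes, and were tested with limma over all genes with a mean of at least 10. Translational efficiency (TE) is the log2 ratio of RPF to mRNA of a clone. As the assays were normalized apart, it has no absolute scale. TE values printed for single clones carry a further shift, constant within a clone, that the tested differences do not include. A change is a Benjamini-Hochberg adjusted p under 0.1 over all genes tested. The limma p-values set the difference between genotypes against the spread between clones of a genotype, which limma moderates with that of all genes tested. The smallest p an exact permutation test of 3 against 3 clones can give is 0.1. Each library pools the cells of a clone, so fewer expressing cells and less RNA per cell cannot be told apart.

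*Rpl10*, the gene targeted by the shRNA, had 2905 normalized mRNA counts in R98S clone 11, 1449 in clone 13 and 2355 in clone 35. In the WT clones it had 4501 (clone 28), 2345 (clone 29) and 2230.3 (clone 36). WT clone 28 was highest and R98S clone 13 lowest, and the genotypes overlapped. The mRNA difference was -0.42 (SE 0.32, limma adjusted p = 0.551). In RPF, *Rpl10* had 2594, 1253 and 1612 normalized counts in R98S and 2605, 1597 and 1732 in WT clones, again with R98S clone 13 lowest and overlapping genotypes (-0.15, SE 0.28, limma adjusted p = 0.794). Knockdown cannot be read from these values, since every clone carries the shRNA and whether reads of the human allele count toward the mouse gene was not tested. Of 12 markers of B lineage and Ba/F3 cells, 6 had a mean of at least 10 normalized mRNA counts; *Csf2rb*, a subunit of the interleukin 3 receptor and the most abundant, ranged from 21027 in WT clone 28 to 64432 in R98S clone 11, the B cell genes *Cd79a* (730.4 to 1357) and *Cd79b* (163 to 589) were present in every clone, while *Pax5* and *Rag1* were at 0 in all 6. Summed over the 12 markers, R98S clones had 122568, 100806 and 122547 normalized mRNA counts and WT clones 48089.8, 93811 and 64322. Every R98S clone was above every WT clone in this sum, which is nearly all *Csf2rb* and *Csf2rb2*; the cause was not tested. *Ptprc*, of the same list, had 5001, 4375 and 3802 in R98S and 4871, 11845 and 7611 in WT clones, with WT clone 29 highest and overlapping genotypes. The 6 T cell markers, led by *Cd3d*, summed to 94.5, 70.4 and 57.6 normalized mRNA counts in R98S and 56.4, 17.3 and 21.9 in WT clones. The 6 myeloid markers, led by *Lyz2*, summed to 0.794, 1.64 and 25.8 and to 43.0, 31.3 and 54.1. At these low levels, every R98S clone was above every WT clone for the T cell sum and below for the myeloid sum. *Cd3d* itself separated (73.8, 63.1 and 43.8 against 29.5, 1.65 and 11.0), while *Cd3g* overlapped (8.73, 0.819 and 0.860 against 16.1, 4.95 and 3.13). In the myeloid list, *Lyz2* was at 0 in WT clone 28, where *Mpo* had 34.9, and *Mpo* had 24.1 in R98S clone 35. Of 7 erythroid and stromal markers, *Pecam1* was the most abundant (2304 to 4003), which many blood cells also express, and *Epcam* was at 0. *Hba-a1*, a hemoglobin gene, was lower in all R98S clones (4.76, 1.64 and 2.58, against 169, 28.9 and 36.8).

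Between genotypes, most chaperone genes differed little, as did most genes of any kind. In mRNA, 33 of 36 members (91.7%) lay within 0.5 of 0 on the log2 scale, against 75.6% of all genes, with a median difference of 0.03 against 0.01 over all 11344 genes tested. No member passed the threshold in mRNA with limma (0 of 36, against 6.94% of all genes); 3 of 36 had an unadjusted p under 0.05 (17.9% of all genes), DESeq2 on the recovered reads called 1 (11.3% of all genes) and edgeR called 0 (7.10% of all genes). In RPF, 30 of 36 members (83.3%) lay within 0.5 of 0, against 75.1% of all genes, and 3 of 36 passed (7.76% of all genes): *Ahsa1*, an activator of HSP90, rose (1 of 36, against 3.13% of all genes), while *Hspa8*, the constitutive HSP70, and *Dnaja2*, a J-domain protein, fell (2 of 36, against 4.62%). At an unadjusted p under 0.05 there were 7 members in RPF (20.3% of all genes). In TE, limma called 0 of 36 members (0.0221% of 9043 genes), 1 member had an unadjusted p under 0.05 (7.85% of genes), and DESeq2 and edgeR interaction models also called 0 (0.716% and 0.0332% of genes). The members' shares of calls were near or below those of all genes.

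Separation of the clones gave a similar picture. In mRNA, the 3 R98S clones lay all above or all below the 3 WT clones for 3 of 36 members (23.5% of all genes), namely *Ahsa1*, *Bag1* and *Dnajb4*. In RPF this held for 8 of 36 (25.3% of all genes): the 3 genes that passed and *Bag1*, *Dnaja1*, *Cct5*, *Cct7* and *Pfdn5*. In both assays and in the same direction it held for 2 of 36 members, *Ahsa1* and *Bag1* (11.3% of 9501 genes). In RPF, 14 members had a difference above 0 and 22 below (median -0.08, against 0.01 over all genes), and in TE 12 above and 24 below (median -0.10, against 0.00). Both medians kept their sign under each alternative setting, from -0.11 to -0.02 for RPF and from -0.17 to -0.04 for TE; the mRNA median turned negative in some, down to -0.03 without WT clone 29. Leaving out 1 clone moved the difference by more than 1.5-fold, or reversed it, for 34 of 36 members in mRNA, 27 in RPF and 33 in TE. The share over all genes was not computed, and a difference near 0, such as *Cct2* mRNA (-0.004), passes this bound readily. Ranges over the 6 such fits are given below as leave-one-out ranges.

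**Figure D1:**
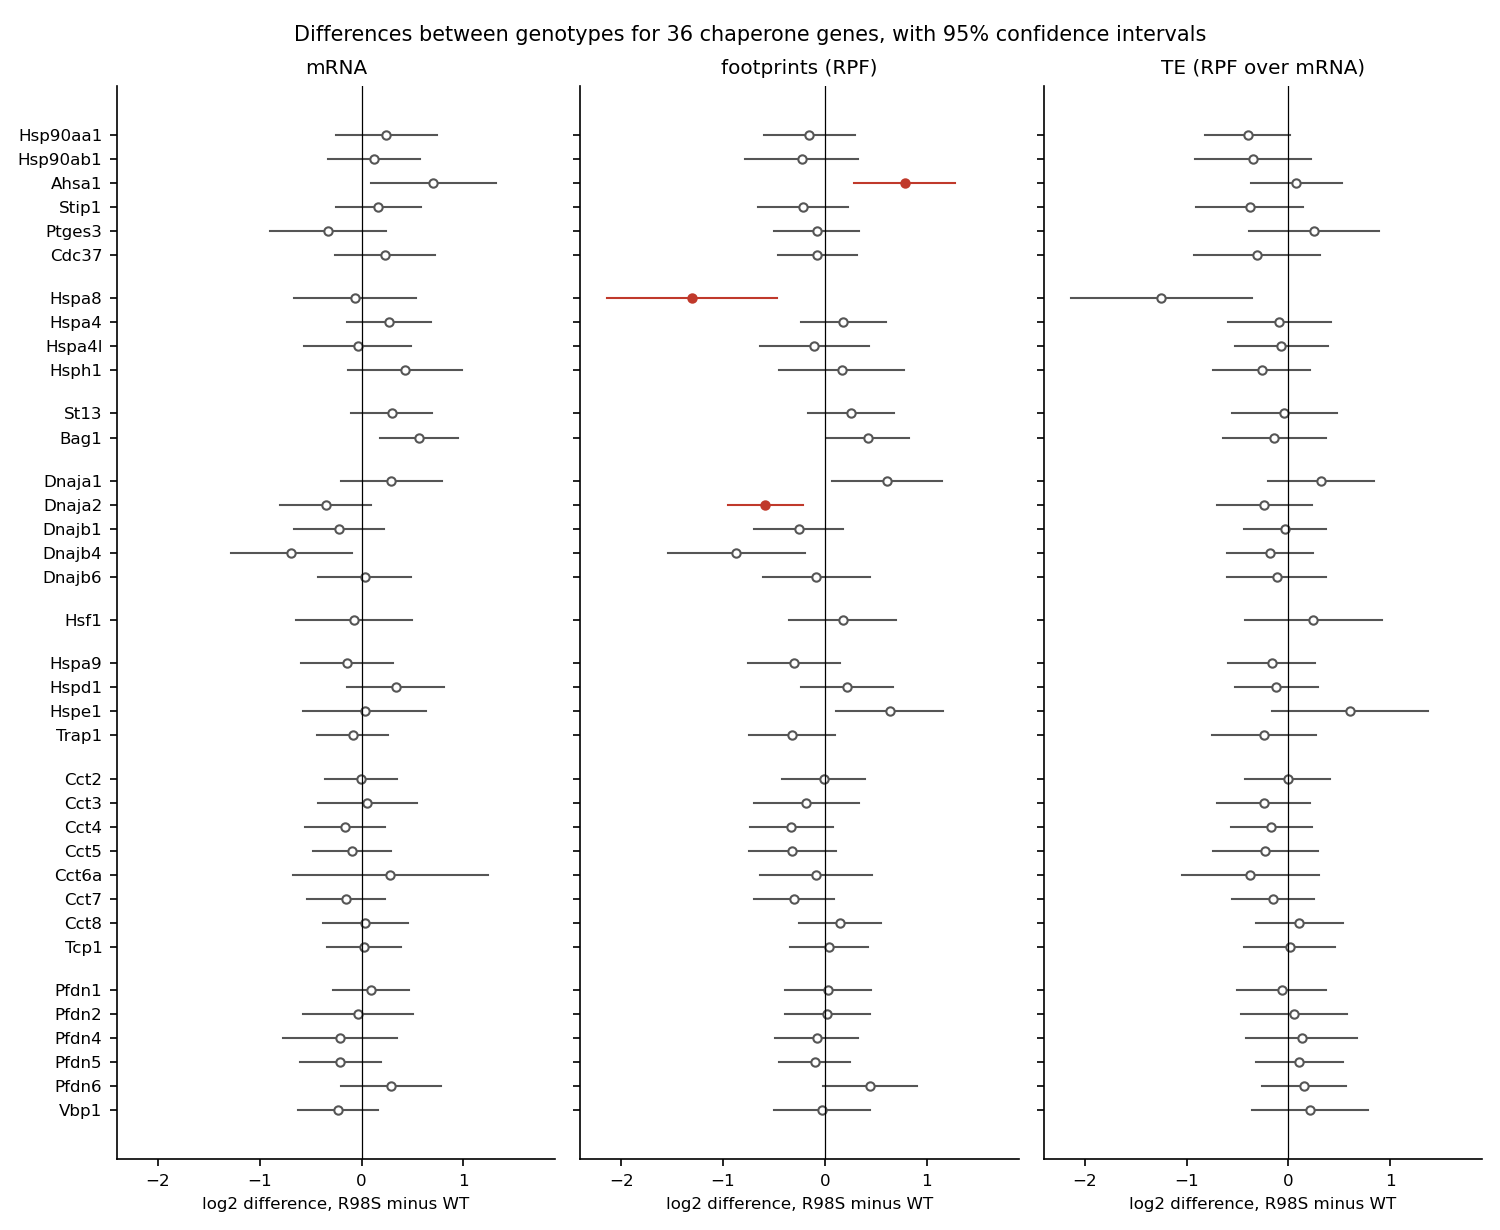
Log2 differences (R98S minus WT, horizontal axis) of the 36 members in mRNA, RPF and TE, grouped by role, with 95% confidence intervals from limma; filled red points passed an adjusted p under 0.1. The 3 filled points are all in RPF, *Ahsa1* at 0.78, *Hspa8* at -1.31 and *Dnaja2* at -0.58.

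HSF1 binds repeats of the unit GAA in alternating orientation, called heat shock elements, and promoter windows from RefSeq (GRCm38.p6, 300 bases that end 50 bases after a start site) were searched for them on both strands. Windows were found for 32 of the 40 genes, and none for *Hsp90aa1*, *Hsp90ab1*, *Hspa8*, *St13*, *Hsf1*, *Hspa9*, *Cct4* and *Pfdn1*. The 3-unit element GAANNTTCNNGAA, or its reverse complement, was in 0.603% of all 32851 windows. It was in a window of 4 of the 32 members (12.5%, against 0.662% of all genes), *Hspd1*, *Hspe1*, *Hsph1* and *Dnajb6*. The 2-unit elements GAANNTTC or TTCNNGAA, which every 3-unit match also contains, were in 15.1% of all windows and in 14 of 32 members (43.8%, against 17.0% of all genes). CCAAT was in 37.4% of windows and in 13 of 32 members (40.6%, against 41.1% of all genes). Of the 4 members with the 3-unit element, 0 passed the threshold with limma in mRNA (6.94% of all genes) or RPF (7.76%). In RPF, 1 of them, *Hspe1*, had an unadjusted p under 0.05 (20.3% of all genes). Neither DESeq2 nor edgeR called any in mRNA or RPF. No conclusion about the element is drawn from these counts of 4 genes. The windows below are those of *Hspe1*, whose 2-unit matches (3) and 3-unit matches (2) overlap in the stretch shown in capitals, and of *Ahsa1* and *Dnaja2*, which changed in RPF, and *Bag1*, whose clones separated in both assays. The last 3 windows hold neither element nor CCAAT and are in lower case throughout. The *Hspe1* window is chr1:55087898-55088197 (plus strand), that of *Ahsa1* chr12:87266478-87266777 (plus), that of *Dnaja2* chr8:85555312-85555611 (minus) and that of *Bag1* chr4:40948245-40948544 (minus). The first of the *Hspe1* matches starts 89 bases before the start site, and the same bases lie in a window of *Hspd1*, which is transcribed the opposite way from the same region. A match is a run of letters, and binding of HSF1 was not measured.
Hspe1: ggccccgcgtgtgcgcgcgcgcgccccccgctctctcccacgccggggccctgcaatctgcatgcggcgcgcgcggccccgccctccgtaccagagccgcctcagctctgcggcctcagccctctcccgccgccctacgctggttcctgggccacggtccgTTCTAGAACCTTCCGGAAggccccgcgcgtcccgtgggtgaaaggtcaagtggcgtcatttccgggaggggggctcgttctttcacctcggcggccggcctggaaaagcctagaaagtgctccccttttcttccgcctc
Ahsa1: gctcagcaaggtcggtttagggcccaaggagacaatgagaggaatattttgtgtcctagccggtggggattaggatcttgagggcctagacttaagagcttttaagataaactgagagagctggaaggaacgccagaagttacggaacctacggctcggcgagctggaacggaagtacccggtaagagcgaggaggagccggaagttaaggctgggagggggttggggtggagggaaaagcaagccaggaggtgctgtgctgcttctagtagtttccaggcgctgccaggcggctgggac
Dnaja2: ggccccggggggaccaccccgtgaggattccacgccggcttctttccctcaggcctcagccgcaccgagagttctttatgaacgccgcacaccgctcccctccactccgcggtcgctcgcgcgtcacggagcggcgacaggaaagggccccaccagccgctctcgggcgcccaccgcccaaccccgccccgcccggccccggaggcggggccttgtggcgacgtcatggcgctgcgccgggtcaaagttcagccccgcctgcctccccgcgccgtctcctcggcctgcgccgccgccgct
Bag1: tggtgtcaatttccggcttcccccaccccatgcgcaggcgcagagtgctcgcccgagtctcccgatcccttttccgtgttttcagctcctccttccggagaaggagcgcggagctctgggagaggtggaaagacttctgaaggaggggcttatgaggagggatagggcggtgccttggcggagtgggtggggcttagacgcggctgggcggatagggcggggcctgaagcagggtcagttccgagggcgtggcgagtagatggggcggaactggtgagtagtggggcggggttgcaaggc

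Among HSP90 and its co-chaperones, *Ahsa1* was the gene that changed. AHA1, its product, binds HSP90 and speeds up its ATP hydrolysis. *Ahsa1* RPF values were 1619, 1520.3 and 1259 normalized counts in the R98S clones and 923, 611 and 1077 in the WT clones. Each R98S clone was above each WT clone, with WT clone 29 lowest. The RPF difference was 0.78 (SE 0.22, limma adjusted p = 0.0820), or 1.72-fold. In mRNA, *Ahsa1* had 3666, 3273 and 3363 normalized counts in R98S and 2777, 1286 and 2614 in WT clones, so that the clones separated there too. Its mRNA difference was 0.70 (SE 0.27, limma adjusted p = 0.209) and did not pass. TE differed by 0.08 (95% confidence interval -0.37 to 0.53; leave-one-out range -0.06 to 0.20), with overlapping clones. The RPF call was lost without R98S clone 11, R98S clone 13, WT clone 28 or WT clone 29 (limma adjusted p = 0.247, 0.262, 0.129 and 0.155), with differences of 0.71, 0.75, 0.85 and 0.55, and over all alternatives the adjusted p ranged from 0.0288 to 0.262. In mRNA the difference was 0.35 without WT clone 29, and it passed without WT clone 28 (limma adjusted p = 0.0955) and with library quality weights (0.0649).

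*Hsp90ab1*, the constitutive cytosolic HSP90, was the most abundant member, at 59924 to 83184 normalized mRNA counts and 38928 to 65361 RPF counts over the 6 clones. *Hsp90aa1*, the stress-inducible form, had 13379 to 23788 mRNA and 4761 to 7382 RPF counts. Per kilobase, the level of *Hsp90ab1* over that of *Hsp90aa1* was 4.57 ± 0.484 (mean ± SD of 3 clones) for R98S mRNA and 5.12 ± 1.55 for WT mRNA, and 8.36 ± 0.884 and 8.77 ± 0.425 in RPF (exact permutation p = 0.6 for both, two-sided). These ratios overlapped between genotypes. *Hsp90ab1* had the lowest RPF difference of the group, -0.23 (SE 0.25, limma adjusted p = 0.657), with 46046, 40149.9 and 43399 normalized counts in R98S and 65361, 38928 and 50672 in WT clones. WT clone 28 was highest and WT clone 29 lowest, with all R98S clones between them; the difference was -0.04 without WT clone 28 and -0.42 without WT clone 29. *Hsp90aa1* had the lowest TE difference among the HSP90 genes, -0.40 (SE 0.19, limma adjusted p = 0.635). Its TE values were -0.36, -0.46 and -0.43 in the R98S clones and 0.01, 0.16 and -0.19 in the WT clones on a log2 scale. The R98S clones were all below the WT clones, but the gene passed the threshold solely with library quality weights. *Hsp90ab1* TE differed by -0.35 with overlapping clones; WT clone 28 had a TE of 1.74 and the others 0.74 to 0.96, and without it the difference was -0.06.

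The remaining HSP90 co-chaperones did not pass in any layer. *Stip1*, which joins HSP70 to HSP90, differed by 0.16 (leave-one-out range 0.03 to 0.26) in mRNA, lowest without R98S clone 35, and -0.21 (leave-one-out range -0.34 to -0.09) in RPF, nearest 0 without WT clone 28. *Cdc37*, which loads kinases onto HSP90, differed by 0.23 (leave-one-out range -0.02 to 0.38) and -0.08 (leave-one-out range -0.16 to 0.02), and both reversed without WT clone 28. *Ptges3*, or p23, which steadies the ATP-bound state of HSP90, had the lowest mRNA difference of the group, -0.33 (SE 0.25, limma adjusted p = 0.547), with 4211, 3567 and 4777 normalized counts in R98S and 7532, 3697 and 5131 in WT clones. WT clone 28 was the high value and the genotypes overlapped; the difference was -0.07 without WT clone 28 and -0.58 without WT clone 29. The median TE difference of the 6 genes was -0.33, against 0.00 over all genes, and -0.06 without WT clone 28.

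**Figure D2:**
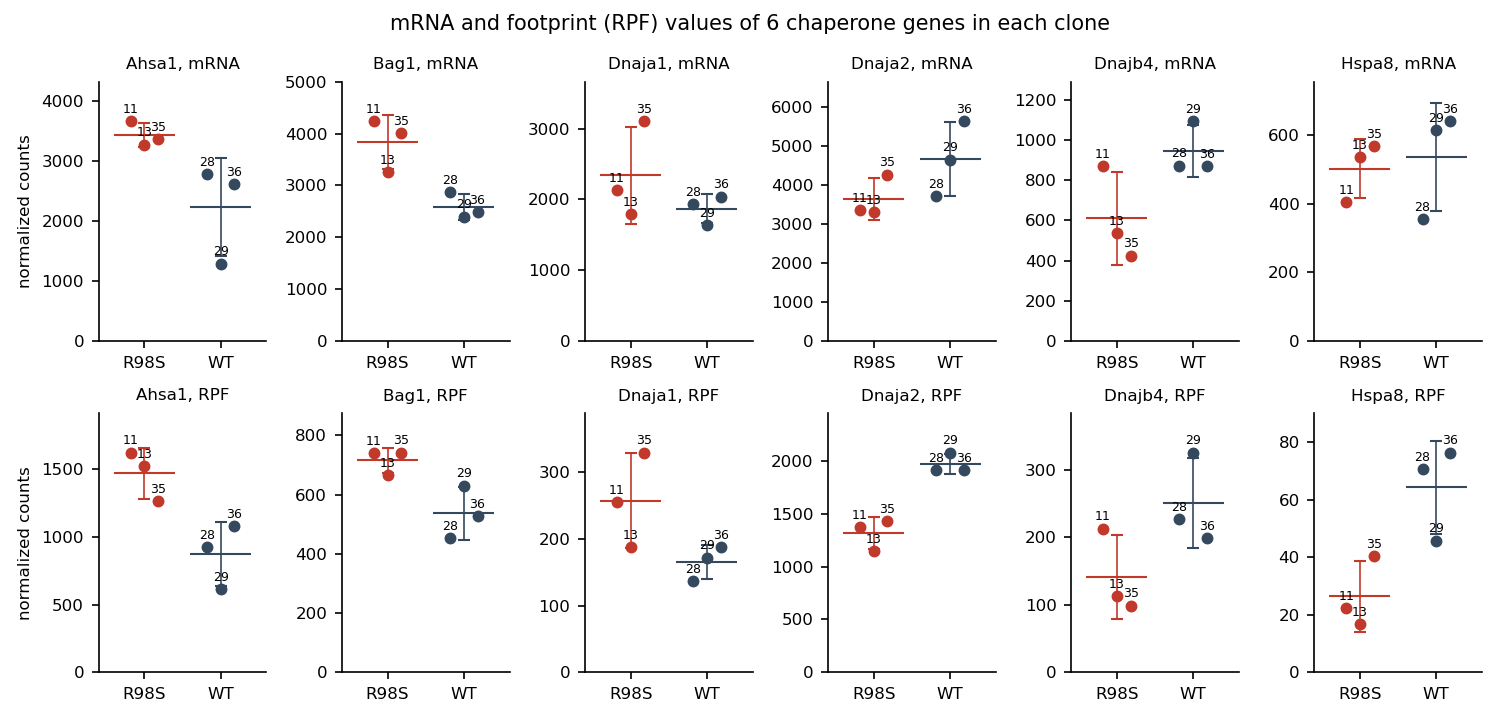
Normalized mRNA counts (top) and RPF counts (bottom) of *Ahsa1*, *Bag1*, *Dnaja1*, *Dnaja2*, *Dnajb4* and *Hspa8* in each clone, with the genotype mean (line) and SD (bar, n = 3). For *Dnaja2* RPF, the R98S clones lie at 1147 to 1429 and the WT clones at 1911 to 2077.

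In the cytosolic HSP70 group, the stress-inducible *Hspa1a* and *Hspa1b* were at or near 0. *Hspa1a* had 1 mRNA read in all, in R98S clone 35, and *Hspa1b* had 0 of the 115347166 mRNA reads counted over the 6 libraries, where a count of 0 leaves up to 3 reads possible. The values of both genes are uncertain, since 88.8% of the 30-base windows of the *Hspa1a* coding sequence also occur in *Hspa1b*, and 88.6% the other way. *Hspa8*, the constitutive HSP70 that serves most folding in unstressed cells, had 403, 536 and 567 normalized mRNA counts in R98S and 354, 614 and 640.2 in WT clones. In mRNA the genotypes overlapped, with R98S clone 11 and WT clone 28 lowest in their groups (-0.06, SE 0.27, limma adjusted p = 0.936; leave-one-out range -0.33 to 0.09, lowest without WT clone 28). In RPF it had 22.3, 16.8 and 40.3 normalized counts in R98S and 70.7, 45.8 and 76.4 in WT clones, which rest on 20 to 74 reads per library. All R98S clones were below all WT clones, the nearest being R98S clone 35 and WT clone 29. *Hspa8* RPF fell by 1.31 on the log2 scale (SE 0.38, limma adjusted p = 0.0841). Its TE difference, -1.25 (SE 0.40, limma adjusted p = 0.629), was the lowest of all 36 members, with values of -2.48, -3.27 and -2.15 in R98S and -0.69, -2.07 and -1.38 in WT clones that did not overlap.

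How far these *Hspa8* counts stand for the gene is uncertain. Of the 1909 windows of 30 bases in its coding sequence, 1814 (95.0%) also occur elsewhere in the reference genome and 95 occur once. Of all 1909, the processed pseudogene *Gm15459* holds 92.1% and *Gm8355* 71.2%, and both are listed at 0 in all 6 mRNA libraries. The RPF call was lost without R98S clone 11, R98S clone 13, WT clone 28 or WT clone 36 (limma adjusted p = 0.228, 0.283, 0.202 and 0.224, with differences from -1.24 to -1.04) and once chromosome medians were removed (0.101, with a difference still at -1.24), within a range from 0.0106 to 0.283 over all alternatives. DESeq2 and edgeR on the recovered reads called it as well (adjusted p = 0.0277 and 0.0765).

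The HSP110 genes *Hspa4*, *Hspa4l* and *Hsph1* encode nucleotide exchange factors that reset HSP70. None passed in any layer with limma, DESeq2 or edgeR. An unadjusted p under 0.05 was found for 0 of the 3 (17.9% of all genes in mRNA, 20.3% in RPF and 7.85% in TE). *Hspa4* was the most abundant, at 5704 to 8493 normalized mRNA and 2846 to 4234 RPF counts, and had the highest RPF difference of the group (0.18, SE 0.19, limma adjusted p = 0.632), which was 0.07 without WT clone 29, 0.10 without R98S clone 13, and 0.28 and 0.30 without R98S clone 35 and WT clone 28. *Hsph1* RPF differed by 0.16 (leave-one-out range -0.12 to 0.40) and exceeded it in some of these fits. *Hsph1* had the highest mRNA difference, 0.43 (SE 0.25, limma adjusted p = 0.415). Its mRNA values were 1371, 1321 and 2212 in R98S and 1455, 933 and 1214 in WT clones, and its RPF values 597, 562 and 1041 and 873, 583 and 488. R98S clone 35 was the highest clone in both assays, and the other R98S clones were within the WT range; the mRNA difference was 0.19 without R98S clone 35 and 0.26 without WT clone 29. *Hspa4l* differed by -0.04 (leave-one-out range -0.24 to 0.20) in mRNA and -0.10 (leave-one-out range -0.31 to 0.09) in RPF, with WT clones 28 and 29 at the ends in mRNA and R98S clone 11 and WT clone 29 in RPF.

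Both HSP70 co-factors with RPF values had differences above 0 in mRNA and RPF, without passing the threshold. BAG1 is a nucleotide exchange factor with a ubiquitin-like domain that can bring HSP70 clients to the proteasome. *Bag1* mRNA was at 4241, 3261 and 4010.4 normalized counts in the R98S clones and 2868, 2398 and 2489.6 in the WT clones. In RPF, it was at 739, 666 and 742 and 454, 631 and 527. All R98S clones were above all WT clones in both assays, most narrowly R98S clone 13 over WT clone 29 in RPF. The differences were 0.57 (SE 0.17, limma adjusted p = 0.110) in mRNA and 0.42 (SE 0.18, limma adjusted p = 0.222) in RPF. The mRNA difference passed with DESeq2 (adjusted p = 0.0482), with library quality weights in limma (0.00955) and without WT clone 28 (limma, 0.0649), in a range from 0.00955 to 0.395. The median difference of genes on chromosome 4, where *Bag1* lies, was 0.18 in mRNA and 0.21 in RPF, and with chromosome medians removed the *Bag1* differences were 0.39 and 0.24. *St13*, or HIP, which slows the release of ADP from HSP70, differed by 0.30 (SE 0.18, limma adjusted p = 0.430) in mRNA and 0.26 (SE 0.19, limma adjusted p = 0.484) in RPF, with overlapping clones; it was 0.16 in mRNA without WT clone 28, and in RPF 0.16 without R98S clone 11 and 0.15 without WT clone 36. *Bag3*, a stress-inducible co-factor that directs clients to autophagy, had 0 of the 115347166 mRNA reads, although none of the 30-base windows of its coding sequence occurs elsewhere.

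J-domain proteins stimulate the ATPase of HSP70, and this group held differences in both directions. *Dnaja2*, a class A member that delivers substrates to HSP70, had 1372, 1147 and 1429 normalized RPF counts in R98S and 1913, 2077 and 1911 in WT clones. All R98S clones were lower than all WT clones, and R98S clone 13 was lowest. *Dnaja2* RPF fell by 0.58 on the log2 scale (SE 0.17, limma adjusted p = 0.0821). Its mRNA values were 3342, 3299 and 4261 in R98S and 3717, 4641 and 5633 in WT clones, where R98S clone 35 lay above WT clone 28 (-0.35, SE 0.20, limma adjusted p = 0.405; -0.20 without WT clone 36). TE differed by -0.24 (95% confidence interval -0.70 to 0.23; -0.10 without WT clone 28 and -0.40 without WT clone 36). The RPF call was lost when any clone but R98S clone 35 was left out (limma adjusted p = 0.201 without R98S clone 11, 0.300 without R98S clone 13, and 0.134, 0.139 and 0.168 without WT clones 28, 29 and 36), while the difference stayed between -0.65 and -0.49. Genes on chromosome 8 had a median RPF difference of -0.18, and with chromosome medians removed *Dnaja2* differed by -0.39 (limma adjusted p = 0.235).

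*Dnajb4*, a class B member, had the lowest mRNA difference of all members, at 872, 536 and 426 normalized counts in R98S and 873, 1095 and 872 in WT clones. The R98S clones were all below the WT clones, R98S clone 11 by less than 1 count. In RPF it had 213, 113 and 99.1 and 227, 326 and 199, so that R98S clone 11 was above WT clone 36. The differences were -0.69 (SE 0.27, limma adjusted p = 0.205) in mRNA and -0.87 (SE 0.31, limma adjusted p = 0.142) in RPF, and neither passed. Without R98S clone 11 both did, at -0.98 (limma adjusted p = 0.0972) and -1.20 (0.0734). They were smaller in size with library quality weights (-0.38 and -0.58), with chromosome medians removed (-0.42 and -0.58) and without R98S clone 35 (-0.46 and -0.65). Genes on chromosome 3, which holds *Dnajb4*, had a median difference of -0.29 in mRNA and -0.31 in RPF.

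*Dnaja1*, the other class A member, had 255, 188 and 329 normalized RPF counts in R98S and 137, 172 and 187 in WT clones. R98S clone 13 and WT clone 36 were nearly level, and R98S clone 35 was the highest. The RPF difference was 0.61 (SE 0.25, limma adjusted p = 0.190) and the mRNA difference 0.29 (SE 0.22, limma adjusted p = 0.541), which was 0.07 without R98S clone 35 and 0.47 without R98S clone 13. These values are uncertain, as 95.1% of its coding windows occur elsewhere, and the pseudogene *Gm15542* holds 83.8% of all its windows. *Dnajb1*, the class B partner of HSP70 in refolding after heat, differed by -0.22 in mRNA and -0.26 in RPF, or -0.06 and -0.10 without R98S clone 35, and -0.35 and -0.41 without R98S clone 11. *Dnajb6*, which keeps polyglutamine proteins from aggregating, differed by 0.03 (leave-one-out range -0.12 to 0.21) and -0.08 (leave-one-out range -0.27 to 0.13), highest in both without R98S clone 13, with 98.2% of its coding windows found elsewhere.

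*Hsf1* itself, the regulator of the heat shock response, had 543, 502 and 830.5 normalized mRNA counts in R98S and 827, 532 and 598 in WT clones. R98S clone 35 and WT clone 28 were high in mRNA, and the genotypes overlapped. Its RPF values were 119, 116 and 141 and 93.6, 142 and 103, which also overlapped, with WT clone 29 highest and WT clone 28 lowest. The differences were -0.07 (SE 0.25, limma adjusted p = 0.921) in mRNA and 0.17 (SE 0.24, limma adjusted p = 0.725) in RPF. In mRNA it was -0.29 without R98S clone 35 and 0.11 without WT clone 28, and in RPF 0.05 without WT clone 28 and 0.35 without WT clone 29. *Hspb1*, a small heat shock protein that holds unfolded proteins in oligomers, had 7 mRNA reads over the 6 libraries; 90.5% of its coding windows occur elsewhere, in the pseudogene *Hsp25-ps1*.

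In mitochondria, HSPA9 pulls in and folds imported chains, HSPD1 (HSP60) forms a barrel that HSPE1 (HSP10) closes, and TRAP1 is the HSP90 of the matrix. None of these 4 genes passed with limma, DESeq2 or edgeR, and *Hspe1* alone had an unadjusted p under 0.05, in RPF (20.3% of all genes). *Hspe1* RPF was at 1291, 900.1 and 762 normalized counts in R98S and 543, 538 and 804 in WT clones. WT clone 36 lay above R98S clone 35, and the other R98S clones were above all WT clones. The RPF difference was 0.64 (SE 0.24, limma adjusted p = 0.160), which passed without R98S clone 35 (0.80, limma adjusted p = 0.0863) and was 0.42 without R98S clone 11 (limma adjusted p = 0.452). *Hspe1* mRNA was at 3499, 2906 and 2774 and 4729, 2286 and 2443, with the highest value in WT clone 28 (0.03, SE 0.27, limma adjusted p = 0.966; 0.36 without WT clone 28). The TE difference was the highest of all members, 0.61 (SE 0.34, limma adjusted p = 0.666), with 0.20, -0.04 and -0.23 in R98S and -1.50, -0.44 and 0.07 in WT clones. WT clone 28 was far below the others and the genotypes overlapped; the difference was 0.18 without WT clone 28 and 0.94 without WT clone 36.

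*Hspd1*, next to *Hspe1* on chromosome 1, had the highest mRNA difference of the mitochondrial group, 0.33 (SE 0.21, limma adjusted p = 0.457), with 9799, 9139 and 7839 normalized counts in R98S and 8005, 5223 and 8369 in WT clones. WT clone 29 was the low value, and the genotypes overlapped; without WT clone 29 the difference was 0.12. Per kilobase, the RPF level of *Hspe1* over that of *Hspd1* was 2.98, 2.57 and 2.50 in R98S and 1.505, 2.16 and 2.45 in WT clones. The R98S clones were above the WT clones (exact permutation p = 0.1, two-sided, the smallest possible), with R98S clone 35 and WT clone 36 closest. In mRNA this ratio was 0.615 ± 0.0390 (mean ± SD of 3 clones) for R98S and 0.789 ± 0.268 for WT, or 1.07 and 1.38 with the longest coding transcript, and the clones overlapped. Both genes have processed pseudogenes, with 84.8% (*Hspe1*) and 80.9% (*Hspd1*) of coding windows found elsewhere. *Hspa9* had the lowest mRNA difference of the group, -0.14 (SE 0.20, limma adjusted p = 0.766), and differed by -0.31 in RPF, with overlapping clones in both. Its mRNA difference was -0.35 without WT clone 29 and -0.04 without WT clone 28 or 36, and its RPF difference -0.15 without WT clone 28 and -0.47 without WT clone 29. *Trap1* had the lowest RPF difference of the group, -0.32 (SE 0.19, limma adjusted p = 0.379), with 974, 1070.3 and 1118 normalized counts in R98S and 1676, 1105 and 1233 in WT clones, where R98S clone 35 lay just above WT clone 29; without WT clone 28 the difference was -0.15. *Trap1* also had the lowest TE difference of the group, -0.24 (SE 0.23, limma adjusted p = 0.764), which was -0.01 without WT clone 28 and -0.38 without WT clone 29.

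The CCT chaperonin is a cylinder of 8 different subunits, encoded by *Tcp1*, *Cct2*, *Cct3*, *Cct4*, *Cct5*, *Cct6a*, *Cct7* and *Cct8*, that folds actin, tubulin and other proteins. With limma 0 of 8 subunits passed in mRNA, RPF or TE (6.94%, 7.76% and 0.0221% of all genes). An unadjusted p under 0.05 was found for 0 (17.9%, 20.3% and 7.85% of all genes), and DESeq2 and edgeR called 0. The median difference was 0.01 in mRNA and -0.14 in RPF, with all 8 within 0.5 of 0 in both. The RPF median was -0.25 without WT clone 29 and -0.01 with chromosome medians removed, and the mRNA median kept its sign in 7 of 13 alternatives, from -0.12 to 0.09. *Cct5* RPF was at 6953, 7101 and 6961 normalized counts in R98S and 10708, 7398 and 8472 in WT clones. For *Cct7*, RPF was at 5403, 5936 and 5508 and 7489, 5989.6 and 7402. For both subunits, which form part of the same ring, the R98S clones lay below all WT clones, and WT clone 28 was highest. The RPF differences were -0.32 (SE 0.19, limma adjusted p = 0.383) for *Cct5* (-0.18 without WT clone 28) and -0.30 (SE 0.18, limma adjusted p = 0.375) for *Cct7*. *Cct4* had the lowest difference in both assays, -0.16 (SE 0.17, limma adjusted p = 0.683) in mRNA (-0.31 without R98S clone 13, and -0.09 without R98S clone 11 or 35) and -0.33 (SE 0.19, limma adjusted p = 0.353) in RPF, and *Cct8* the highest in RPF (0.15, SE 0.18, limma adjusted p = 0.694; leave-one-out range 0.06 to 0.24, lowest without WT clone 29). *Cct4* RPF was at 3111, 3880.5 and 2725 in R98S and 4312, 3962 and 3823 in WT clones, where WT clone 28 was highest, R98S clone 35 lowest, and the genotypes overlapped; without R98S clone 35 the difference was -0.21. In TE, *Cct4* had 0.71, 0.60 and 0.50 in R98S and 0.88, 0.74 and 0.72 in WT clones. In these shifted values all R98S clones lay below all WT clones, by little, but without the shift R98S clone 11 was above WT clone 36. The genotypes thus overlapped in the TE that was tested. Its difference was -0.17 (SE 0.18, limma adjusted p = 0.781), with a leave-one-out range of -0.22 to -0.10. In RPF, *Tcp1* differed by 0.04 (leave-one-out range -0.05 to 0.10), *Cct2* by -0.01 (leave-one-out range -0.14 to 0.09) and *Cct3* by -0.18 (leave-one-out range -0.39 to 0.03), and *Cct2* and *Cct3* had their lowest value without WT clone 29 and their highest without WT clone 28.

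*Cct6a* stood far below its partners. It had 17.5, 15.6 and 22.4 normalized mRNA counts in R98S and 13.4, 14.0 and 17.2 in WT clones, from 5 to 26 reads. Its RPF values were 81.9, 67.9 and 58.8 and 77.4, 66.6 and 76.4. The mRNA difference, 0.28 (SE 0.43, limma adjusted p = 0.783), was the highest of the subunits (0.15 without R98S clone 35), and its TE difference the lowest, -0.37 (SE 0.30, limma adjusted p = 0.726), or -0.12 without R98S clone 35. The other 7 subunits had at least 5143 normalized mRNA counts in every clone, and the genotypes overlapped for *Cct6a* in both assays. None of its coding windows occurs elsewhere. In the GENCODE annotation the gene has no coding exons and is typed as a processed transcript, and RefSeq marks its GRCm38 record as partial, so its coding length was taken from RefSeq; whether the reference record set these values was not tested.

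Without *Cct6a*, the summed level of the other 7 subunits was 23186, 22496 and 20653 normalized RPF counts per kilobase in R98S and 28227, 21194 and 24927 in WT clones. The genotypes overlapped, with WT clone 28 highest. In WT clones, the median RPF level per kilobase ran from 2378 for *Tcp1* to 5420.2 for *Cct5*, a ratio of 2.28. In mRNA the median levels per kilobase ran from 1141 for *Cct7* to 4204 for *Cct5*, a ratio of 3.68, or 2.11 between *Cct4* and *Cct5* with the length of the longest coding transcript in place of all annotated exons. Across the 7 subunits of a clone, the coefficient of variation of levels per kilobase was 23.4% to 37.7% in RPF and 52.1% to 59.5% in mRNA; with the longest coding transcript it was 23.1% to 36.6% in RPF and 26.4% to 38.7% in mRNA, and it was higher in mRNA in every clone but WT clone 28.

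Prefoldin is a jellyfish-shaped complex of 6 subunits that carries unfolded actin and tubulin to CCT. *Vbp1* and *Pfdn5* encode its alpha-type subunits and *Pfdn1*, *Pfdn2*, *Pfdn4* and *Pfdn6* its beta-type subunits. With limma 0 of 6 passed in mRNA, RPF or TE (6.94%, 7.76% and 0.0221% of all genes). An unadjusted p under 0.05 was found for 0 (17.9%, 20.3% and 7.85% of all genes), and DESeq2 and edgeR called 0. *Pfdn6* had the highest differences, 0.29 (SE 0.22, limma adjusted p = 0.542) in mRNA and 0.44 (SE 0.21, limma adjusted p = 0.272) in RPF, and passed in both assays with library quality weights; the mRNA difference was 0.50 without WT clone 28, and 0.19, 0.19 and 0.18 without R98S clone 11, WT clone 29 and WT clone 36. Its RPF values were 747, 600.1 and 526 normalized counts in R98S and 573, 409 and 399 in WT clones. WT clone 28 lay above R98S clone 35, and the other WT clones were below all R98S clones. *Pfdn5* RPF was at 938, 856 and 888 and 987, 941 and 949. The R98S clones were all below the WT clones, R98S clone 11 and WT clone 29 being nearly level, and the difference was -0.10 (SE 0.16, limma adjusted p = 0.761). *Vbp1* had the lowest mRNA difference (-0.23, SE 0.17, limma adjusted p = 0.537; -0.14 without R98S clone 11 and -0.37 without R98S clone 35), while in RPF *Pfdn1* differed by 0.03 (leave-one-out range -0.10 to 0.11), *Pfdn2* by 0.02 (leave-one-out range -0.09 to 0.18) and *Pfdn4* by -0.08 (leave-one-out range -0.17 to 0.03). *Pfdn1* and *Pfdn2* had their lowest value without R98S clone 11, and *Pfdn4* its lowest without WT clone 29. Median RPF levels per kilobase in WT clones ran from 989 for *Pfdn4* to 2360.2 for *Pfdn5*, a ratio of 2.39, and mRNA levels per kilobase from 241 to 1948 for the same genes, a ratio of 8.07, or 4.91 between *Pfdn2* and *Pfdn5* with the longest coding transcript. About 53.8% of the coding windows of *Pfdn5* and 25.0% of those of *Pfdn6* occur elsewhere, and 11.8% of the exon bases of *Pfdn5* are shared with *Myg1*.

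**Figure D3:**
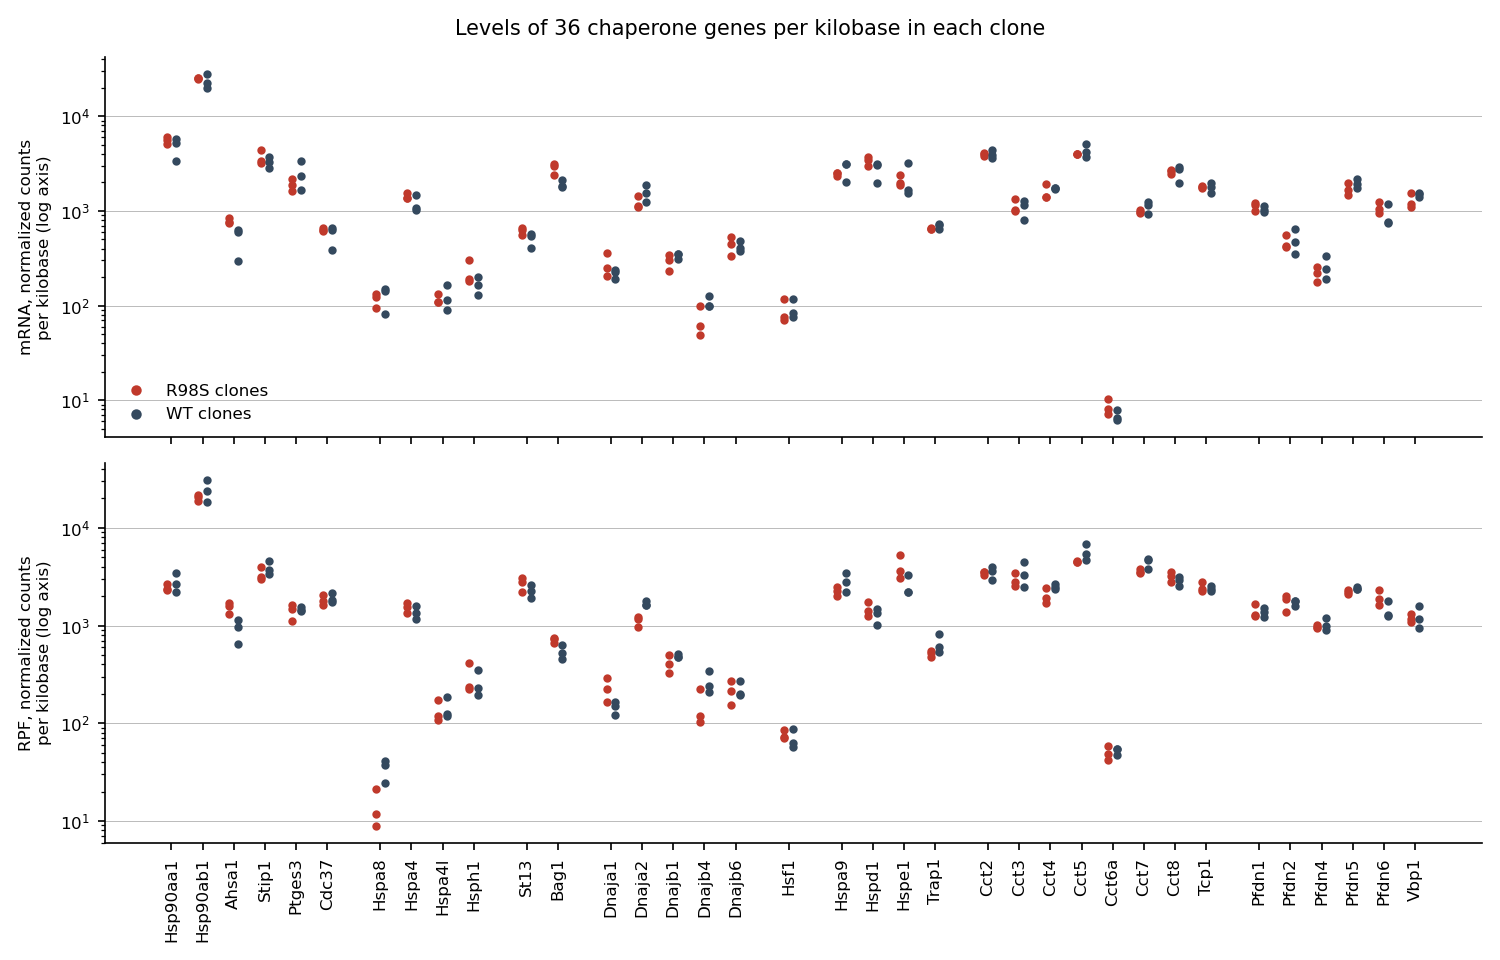
Normalized mRNA counts (top) and RPF counts (bottom) per kilobase of the 36 members in each clone, on log axes, by role; red, R98S clones, dark blue, WT clones. *Hsp90ab1* is highest in both assays (median in WT clones 22434 in mRNA and 23992 in RPF), and *Cct6a* lowest in mRNA (6.45) and *Hspa8* lowest in RPF (37.6).

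Most groups of chaperones ranked high among all genes in both assays. Among the 9744 genes with a coding length in both tables, *Hsp90ab1* was at percentile 99.9 of the mRNA level per kilobase in WT clones and 99.8 of the RPF level per kilobase. The median member of the CCT group was at percentile 96.2 in mRNA and 96.8 in RPF, that of the mitochondrial group at 96.8 and 93.0, and that of prefoldin at 90.6 and 90.8. The J-domain proteins had medians of 74.0 and 61.6. Lower still were *Hsf1*, at percentile 30.7 in mRNA and 27.8 in RPF, and the group of *Hspa4*, *Hspa4l*, *Hsph1* and *Hspa8*, with medians of 48.0 and 52.7. For RPF per mRNA, both per kilobase, *Cct6a* was at percentile 98.6 in WT clones, *Pfdn4* at 97.3, *St13* at 97.1, *Cct7* at 96.3 and *Pfdn2* at 95.7. At the other end stood *Hspa8* (5.95), *Bag1* (6.43), *Hspd1* (18.5) and *Dnajb6* (21.3). Exon unions of several genes are much longer than the main transcript, and with the longest coding transcript the percentile of RPF per mRNA was 45.2 for *Ahsa1* in place of 82.4, and 9.27 for *Hsf1* in place of 36.0.

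Many chaperone genes have processed pseudogenes. Reads were kept at a mapping quality of at least 10, and for each coding sequence the share of 30-base windows that occur elsewhere on the reference chromosomes was computed. That share was over 50% for 8 of 36 members (22.2%), against 6.69% of the 9744 genes of the RPF table with a coding sequence. The 8 genes were *Ptges3* (100%), *Dnajb6*, *Dnaja1*, *Hspa8*, *Hsp90aa1* (92.1%), *Hspe1*, *Hspd1* and *Pfdn5*. Their median percentile of RPF per mRNA in WT clones, per kilobase, was 27.6, against 63.9 for the other 28 members. Over all genes, the median percentile was 43.5 for the 648 genes over 50% and 50.4 for the 9072 others. *Ptges3* still had 470.2 to 685 normalized RPF counts; how shared sequence bore on the assignment of reads was not tested. Levels of these 8 genes are therefore uncertain in both assays, while *Dnaja2*, *Bag1* and *Dnajb4* have 0 windows elsewhere and *Ahsa1* has 1.02%.

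**Figure D4:**
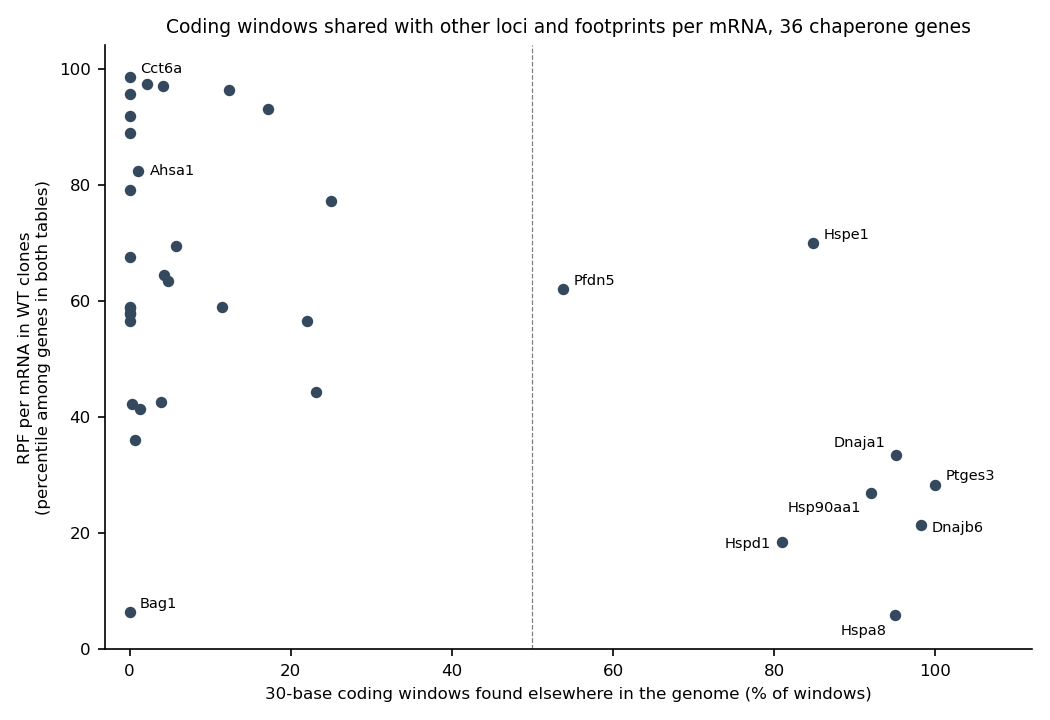
Each point is one of 36 members, with the percent of its 30-base coding windows found elsewhere in the genome (horizontal axis) and the percentile of its RPF per mRNA in WT clones among genes in both tables (vertical axis); the dashed line is at 50%. Right of the line, 6 of the 8 members lie under percentile 40, and left of it 2 of 28.

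Some clones were often the highest or the lowest of the 6. In mRNA, WT clone 29 was the lowest clone for 13 of 36 members (36.1%, against 16.9% of all genes), and the median deviation of the members from their mean over clones was -0.15 there, against 0.01 for all genes (log2). WT clone 28, with the shallowest mRNA library, was lowest for 12 members (33.3%, against 27.5%) and highest for 7. In RPF, WT clone 28 was the highest for 13 members (36.1%, against 20.2% of all genes) and R98S clone 11 for 10 (27.8%, against 15.7%), while WT clone 29 was lowest for 11 (30.6%, against 20.6%). For *Hsp90aa1*, *Ahsa1*, *Hspd1*, *Hspe1*, *Cct2*, *Cct3* and *Cct8*, WT clone 29 was the lowest clone in both assays. In RPF, the WT group thus held both the clone most often highest and the clone most often lowest.

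A further 116 genes in 8 lists of related factors were read alongside: other HSP70 and small HSP genes, heat shock factors, J-domain proteins, HSP70 co-factors, HSP90 co-chaperones, CCT and prefoldin helpers, mitochondrial proteases, and clients of CCT. In mRNA 6 of the 96 tested passed with limma (6.25%, against 6.94% of all genes), 4 higher and 2 lower in R98S clones. In RPF 8 of 92 passed (8.70%, against 7.76%), 4 higher and 4 lower. In TE, limma called 0 of 89. The mRNA and RPF counts include genes, named below, that reached the mean of 10 through the R98S clones. *Hspa2*, an HSP70 best known from the testis, was higher in R98S clones in both assays. *Dnajb5*, a J-domain protein related to *Dnajb4*, was higher in mRNA (limma difference 1.69, SE 0.30, adjusted p = 0.0146). *Hspa2* RPF was at 211, 246 and 215 normalized counts in R98S and 108, 133 and 76.4 in WT clones, all R98S clones being higher, and its limma difference was 1.11 (SE 0.24, adjusted p = 0.0333). *Dnajb5* RPF was at 28.7, 45.3 and 38.6 in R98S and 6.69, 6.25 and 7.91 in WT clones. All clones separated at low counts, with a limma difference of 2.26 (SE 0.39, adjusted p = 0.0131). *Dnajb5* is among the 4 higher RPF calls, but all its WT RPF values lay under 10, so it reached the mean of 10 through the R98S clones. No conclusion is drawn from its RPF call. *Dnajb13* and *Dnajc28*, tested in mRNA alone, make up 2 of the 4 higher calls there. *Dnajb13* had 40.5, 40.1 and 54.2 normalized counts in R98S and 0, 3.30 and 2.35 in WT clones, and *Dnajc28* 58.0, 59.0 and 30.1 and 0, 9.90 and 11.8. All R98S clones were higher, and both genes reach a mean of 10 through the R98S clones, with few reads in WT clones. No conclusion is drawn from these 2 mRNA calls. The *Dnajc28* call (limma adjusted p = 0.0901) did not hold with a smaller pseudocount, so the count of higher mRNA calls depends on this choice.

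Lower in both assays were *Dnajc12*, a J-domain co-chaperone of aromatic amino acid hydroxylases, and *Tubb6*, a beta-tubulin that CCT folds. *Dnajc12* RPF was at 114, 63.7 and 48.7 normalized counts in R98S and 259, 188 and 258 in WT clones (limma difference -1.70 (SE 0.31, adjusted p = 0.0154)), and *Tubb6* RPF at 271, 353 and 195 and 962, 579.9 and 841 (limma difference -1.55 (SE 0.26, adjusted p = 0.0123)). For both, every R98S clone was below every WT clone. In RPF, *Stub1*, a ubiquitin ligase that acts on HSP70 clients, rose by 0.87 (limma adjusted p = 0.0399) and *Nudc*, an HSP90 co-chaperone, by 0.62 (0.0735). Their mRNA differences did not pass (0.46 and 0.14, limma adjusted p = 0.306 and 0.707), and neither did their TE differences (limma adjusted p = 0.653 and 0.629). *Actg1*, the cytoplasmic gamma-actin and a main client of CCT and prefoldin, fell by 1.20 in RPF (limma adjusted p = 0.0273), with an mRNA difference of -0.97 (0.231) and a TE difference of -0.24 (0.778). *Actg1* RPF was at 3334, 3477 and 4351 in R98S and 10848, 5685 and 9995 in WT clones, with WT clone 29 nearest to the R98S clones. Among the 15 CCT clients tested, the median difference was -0.19 in mRNA and -0.34 in RPF, against 0.01 over all genes in both, and 1 of 15 (6.67%) and 2 of 15 (13.3%) passed, against 6.94% and 7.76% of all genes.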

How the data were processed

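Ribosome footprints and total mRNA were sequenced from 6 Ba/F3 clones, 3 per genotype. The authors aligned reads to mm10 with TopHat 2.0.11, kept primary alignments with mapping quality of at least 10, counted exon reads (mRNA) or coding reads without the first 15 and last 5 codons (RPF, 3 technical replicates merged), and deposited signal values, counts divided by DESeq2 size factors. The counting tool and annotation are not given in the sources used here. From these values, 100% of which were whole multiples (tolerance 0.01) of the worth of 1 read, reads were recovered for alternatives with DESeq2 1.42.0 and edgeR 4.0.16. Since the values are normalized, the planned main test was limma (version 3.58.1, in R 4.3.3), run on each table apart with a trended variance and a pseudocount of 1, Benjamini-Hochberg adjusted over all genes with a mean of at least 10 (for TE, at least 10 in all 12 libraries); it was tried on simulated data. Other pseudocounts, no filter, library quality weights, removal of chromosome medians and leaving out each clone were also run.

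Clone numbers in the labels pair the assays for TE: deviations from genotype means correlated by 0.221 to 0.683 (mean 0.522, 6 clones). Clones of different genotypes are not paired. Levels per kilobase used GENCODE exons or coding exons on GRCm38. All 40 listed genes are described; full statistics are given for members past the threshold, at the extremes of a role group in mRNA or RPF, or with separated clones, and for some TE extremes. Members and lists were chosen with earlier results of these data known. The ratios of *Hsp90ab1* to *Hsp90aa1* and of *Hspe1* to *Hspd1*, and the shared windows, were chosen after values were seen. The ratio of the highest to the lowest subunit level was planned.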

Additional observations from a re-analysis of the deposited data

How the results depend on the processing

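For mRNA, the number of members called, 0 in the main analysis, was 1 with DESeq2 (*Bag1*, against 11.3% of all genes). It was 4 with library quality weights (*Ahsa1*, *Bag1*, *Dnaja2* and *Pfdn6*, or 11.1%, against 26.1% of all genes), and 0 to 2 with 1 clone left out (2.78% to 9.82% of all genes). For RPF, 3 members were called in the main analysis (7.76% of all genes), by DESeq2 (11.35%) and by edgeR (8.43%). Library quality weights gave 4 (also *Pfdn6*, against 18.8% of all genes), and removal of chromosome medians gave 1 (*Ahsa1*, against 7.004%). With 1 clone left out, 0 to 4 members were called, and the share of all genes also varied, from 2.39% to 11.98%. The number was 1 without R98S clone 11 (2.84% of all genes), 0 without R98S clone 13 (2.39%) and 0 without WT clone 28 (3.96%). It was 4 without R98S clone 35 (11.98%), 1 without WT clone 29 (6.95%) and 1 without WT clone 36 (3.72%). For TE, 1 member was called with library quality weights (*Hsp90aa1*, against 8.80% of all genes) and 0 with every clone left out in turn (0% to 0.0331% of all genes). With no replicate block, that is, without pairing the assays by clone, TE calls among members were 0, as in the DESeq2 and edgeR models that kept the block, and the pairing changed no call of a member. A variance trend on the mean level, chosen after seeing the data, also gave 0. Over these settings the number of genes called ranged from 315 to 2959 of all genes in mRNA (787 in the main analysis, 1283 with DESeq2), from 229 to 1799 in RPF (743) and from 0 to 796 in TE (2; 61 with DESeq2). Without R98S clone 11 or 13, 27.6% and 28.4% of RPF calls were higher in R98S clones, against 40.4% in the main analysis.

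With lengths of the longest coding transcript, the ratio of the highest to the lowest mRNA level was 2.11 for CCT subunits without *Cct6a* (3.68 with all exons) and 4.91 for prefoldin (8.07). Differences of members named with an unadjusted p under 0.05 kept their sign under all settings. Over all 36 members, 15 in mRNA, 14 in RPF and 17 in TE changed sign in some setting, all with main differences of at most 0.31 on the log2 scale. The causes were not tested. *Hspa8* RPF rests on 20 to 74 reads per library and *Cct6a* mRNA on 5 to 26.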
